A study of Mus musculus with 6 samples.

Results

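Mrap2, Slc46a2, Slc9a3 and Brinp1 are 4 of the 38293 genes in a table of counts from infarcted mouse hearts. They were selected on their higher values in hearts that lack the transcription factor ZEB2 in cardiomyocytes, in these same libraries, so their difference between the genotypes is described here and not tested. All 4 were matched to the table by Ensembl identifier. RNA was sequenced from heart tissue of 3 Zeb2 fl/fl mice and 3 Zeb2 cKO mice, collected 14 days after myocardial infarction (MI) produced by tying off the left anterior descending coronary artery permanently. Every mouse carried the floxed Zeb2 allele on a backcrossed C57BL/6J background, and according to the methods all were adult males. The Zeb2 cKO mice also carried a Cre recombinase driven by the Myh6 (αMHC) promoter, which is active in cardiomyocytes, and the labels name the other group WT. The labels place the tissue in the border region of the infarct, and the methods place it in the remote zone, so it is called heart tissue here.

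Of the proteins these genes encode, 3 sit in membranes. MRAP2 is a small accessory protein with a single transmembrane span that binds melanocortin receptors, above all MC4R in the hypothalamus, and also ghrelin and prokineticin receptors. SLC46A2 belongs to the family of the proton-coupled folate transporter, is best known from the cortical epithelium of the thymus (as TSCOT), and can carry cyclic dinucleotides into myeloid cells. SLC9A3 (NHE3) exchanges sodium for protons at the apical membrane of kidney proximal tubule and intestinal epithelium. BRINP1 is a protein of neurons, named for its induction by BMP and retinoic acid, and it enters the secretory pathway without a known channel or carrier function, so the description of the set as membrane genes fits it least. None of the 4 is commonly used as a marker of cardiomyocytes.

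The genes lie on 3 chromosomes of GRCm38. Mrap2 (ENSMUSG00000042761) runs along the plus strand of chromosome 9 from 87144306 to 87184045. Slc46a2 (ENSMUSG00000028386) and Brinp1 (ENSMUSG00000028351) are on the minus strand of chromosome 4, from 59905126 to 59915056 and from 68761514 to 68954397, with 8.85 Mb between them. Slc9a3 (ENSMUSG00000036123) runs along the plus strand of chromosome 13 from 74121457 to 74169442. No annotated gene overlaps any of them. ZEB2 binds DNA at E-box-like sites with the core CACCT, which reads as AGGTG on the other strand, and since ZEB2 is the deleted factor, the 250 bases before each gene's RefSeq start were searched for these letters on both strands. The sequences were taken from RefSeq on GRCm38.p6, where 4 of 4 genes had an entry, and cover chr9:87144056-87144305 (plus strand), chr4:59915057-59915306 (minus strand), chr13:74121163-74121412 (plus strand) and chr4:68954398-68954647 (minus strand) in the order below. The RefSeq start of Slc9a3 lies upstream of the Gencode start given above, so its window does not adjoin it. The sequences are written 5′ to 3′ on the strand of the gene, with each CACCT or AGGTG in capitals.
Mrap2: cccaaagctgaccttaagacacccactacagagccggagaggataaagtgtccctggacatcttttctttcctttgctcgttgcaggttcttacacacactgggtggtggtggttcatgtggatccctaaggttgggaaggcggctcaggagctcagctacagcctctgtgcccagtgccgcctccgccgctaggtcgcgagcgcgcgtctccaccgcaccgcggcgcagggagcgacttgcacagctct
Slc46a2: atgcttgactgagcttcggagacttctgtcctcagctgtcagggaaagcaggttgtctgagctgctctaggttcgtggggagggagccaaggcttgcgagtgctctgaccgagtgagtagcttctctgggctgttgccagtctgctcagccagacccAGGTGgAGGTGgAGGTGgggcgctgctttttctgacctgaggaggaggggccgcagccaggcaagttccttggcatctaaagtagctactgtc
Slc9a3: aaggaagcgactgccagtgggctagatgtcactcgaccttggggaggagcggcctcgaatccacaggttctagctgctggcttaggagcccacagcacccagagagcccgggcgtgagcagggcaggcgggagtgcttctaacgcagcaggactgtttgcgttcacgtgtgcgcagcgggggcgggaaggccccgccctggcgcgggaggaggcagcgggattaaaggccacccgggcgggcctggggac
Brinp1: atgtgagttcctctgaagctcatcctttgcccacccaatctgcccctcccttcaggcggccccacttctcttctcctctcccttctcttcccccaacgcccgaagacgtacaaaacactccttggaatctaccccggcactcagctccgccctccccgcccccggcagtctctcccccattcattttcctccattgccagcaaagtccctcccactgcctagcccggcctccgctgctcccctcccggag
Only the Slc46a2 window held the core. It held it 3 times in close succession, each as AGGTG, and 1 of them reads as the longer CAGGTG. The windows of Mrap2, Slc9a3 and Brinp1 held it 0 times. Among all 32851 promoter windows of the same length, 46.0% held CACCT or AGGTG at least once, 3.33% held it at least 3 times, and 17.2% held the longer CACCTG or CAGGTG, whose matches are also counted among those of the shorter motif. The GC content of the windows was 60%, 58.4%, 67.6% and 62% in the order printed, all above the median of 52.4% over all windows. A match of letters is not a binding site, and binding was not measured in these libraries.

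Total counts were between 37288174 and 51136331 per library, of which 60.5% to 67.0% lay in mitochondrially encoded genes. Levels are given as raw counts and as CPM, the counts scaled to a library size normalized with TMM, and the groups were compared in the 14746 genes that passed a filter on low counts. Zeb2 itself was at 83.0 ± 29.0 CPM (SD, n = 3) in Zeb2 fl/fl hearts and at 66.2 ± 6.51 CPM in Zeb2 cKO, with groups that overlapped (log2 fold change -0.33, standard error 0.25, Benjamini-Hochberg adjusted p = 0.957 in the edgeR quasi-likelihood fit). All cell types of the tissue contribute to the counts, whereas Cre acts in cardiomyocytes. Fewer cells of a type and less RNA per cell cannot be told apart in them. Zeb2 fl/fl replicate 2 stood apart from the other libraries: its summed fibroblast markers reached 9617 CPM, against 1679 CPM to 2325 CPM in Zeb2 cKO and 1692 CPM in the lowest Zeb2 fl/fl library, and its cardiomyocyte markers were the lowest, at 36967 CPM. The values of the 4 genes and the counts over related and neighbouring genes are therefore also given without it. Its Zeb2 level, 116 CPM, was the highest of all libraries too. Replicates 1 and 3 of Zeb2 fl/fl, with 61.3 and 71.9 CPM of Zeb2, fell inside the Zeb2 cKO range of 59.5 to 72.5 CPM. The lower Zeb2 mean of the Zeb2 cKO group thus rests on Zeb2 fl/fl replicate 2.

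Mrap2 was not detected in Zeb2 fl/fl hearts and was present at a few counts in Zeb2 cKO. It had 0 counts in each of the 3 Zeb2 fl/fl libraries, and 43, 10 and 14 counts in Zeb2 cKO replicates 1, 2 and 3, which is 0.859, 0.230 and 0.260 CPM (0.450 ± 0.355, SD, n = 3). All of the Zeb2 cKO libraries lay above the Zeb2 fl/fl libraries, and replicate 1 held most of the counts. Set against a floor of 3 counts over the group, the Zeb2 cKO level was 18.2-fold higher in CPM. For the pooled counts, 67 against 0, the 95% exact lower limit of the ratio was 14.4. The 0 counts in a Zeb2 fl/fl library allow up to 0.0840 CPM to 0.0979 CPM (95% exact Poisson limit), and the interval of Zeb2 cKO replicate 2, the lowest, began at 0.110 CPM. Such intervals cover counting error only. Of the 14746 tested genes 1, Mrap2, had 0 counts in every Zeb2 fl/fl library, and 0 genes had 0 counts in every Zeb2 cKO library. The filter limits these numbers, since a gene at 0 in one group passes it only through the other. Genes that did not pass can share the pattern, such as Gm10263, with 0, 0 and 0 against 3, 172 and 2 counts.

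Slc46a2 was also close to absent in Zeb2 fl/fl hearts and differed most among the Zeb2 cKO libraries. Its counts were 5, 2 and 5 in Zeb2 fl/fl, or 0.133, 0.0456 and 0.130 CPM (0.103 ± 0.0496). They were 182, 13 and 89 in Zeb2 cKO, or 3.64, 0.299 and 1.66 CPM (1.86 ± 1.68). The groups did not overlap, but the highest Zeb2 cKO library was 12.1 times the lowest, and their counting intervals (3.13 to 4.20 CPM against 0.159 to 0.512 CPM) lay far apart. The interval of Zeb2 cKO replicate 2 overlapped those of the 3 Zeb2 fl/fl libraries. Over the group means Slc46a2 was 18.1-fold higher, and over pooled counts, 284 against 12, it was 19.3-fold higher (95% exact interval 10.9 to 37.8). This interval, like those for pooled counts of the other genes, covers counting error only and not the spread between mice.

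Slc9a3 was higher in Zeb2 cKO with the most even levels among the mice of that group. In Zeb2 fl/fl it had 5, 4 and 23 counts, that is 0.133, 0.0911 and 0.599 CPM (0.274 ± 0.282). In Zeb2 cKO it had 83, 47 and 69 counts, that is 1.66, 1.08 and 1.28 CPM (1.34 ± 0.292). The Zeb2 fl/fl libraries were the uneven ones here, with replicate 3 above the other two, and the groups did not overlap. The group means differed 4.89-fold and the pooled counts, 199 against 32, 5.07-fold (3.48 to 7.61).

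Brinp1, the neuronal gene, was the lowest of the 4 per kb of exon in Zeb2 cKO. It had 3, 4 and 2 counts in Zeb2 fl/fl, or 0.0796, 0.0911 and 0.0521 CPM (0.0743 ± 0.0201). There were 31, 13 and 16 in Zeb2 cKO, or 0.619, 0.299 and 0.298 CPM (0.405 ± 0.185). The groups did not overlap, and Zeb2 cKO replicates 2 and 3 were nearly level, below replicate 1. The ratio of the group means was 5.46, and that of the pooled counts, 60 against 9, was 5.43 (2.68 to 12.5). Per kb of exon the mean levels in Zeb2 cKO were 0.658 CPM for Slc46a2, 0.244 for Slc9a3, 0.199 for Mrap2 and 0.0656 for Brinp1. The libraries of Slc46a2, Slc9a3 and Mrap2 overlapped in this order, and those of Brinp1 lay below all of them by a small margin.

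**Figure D1:**
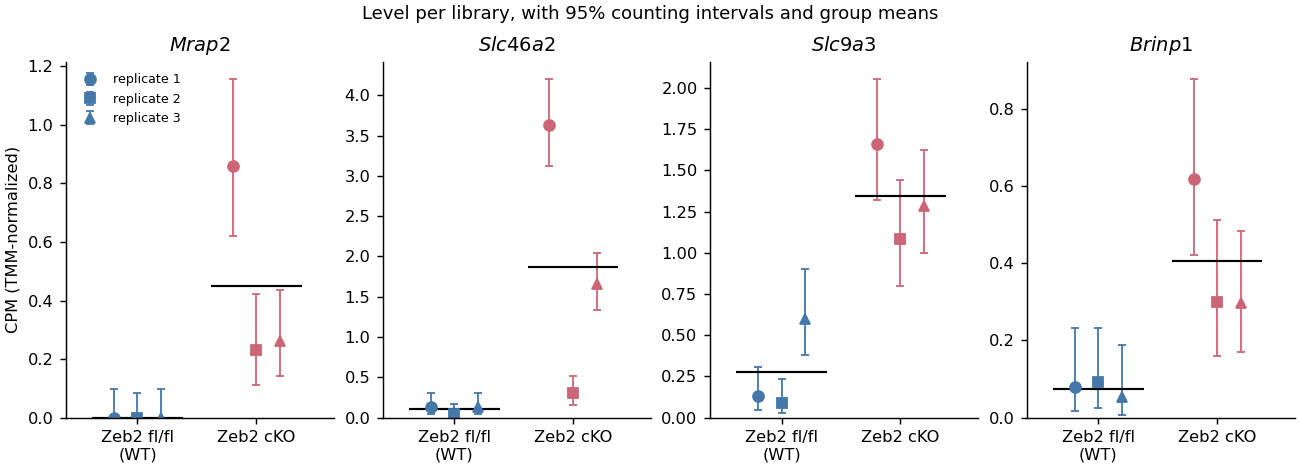
Levels of the 4 genes in each library in CPM (linear axes from 0, a separate axis per gene), with Zeb2 fl/fl in blue and Zeb2 cKO in red, marker shape for the replicate number, bars for 95% exact Poisson intervals of the count and black lines for group means. Zeb2 cKO replicate 1 was the highest library for all 4 genes, from 0.619 CPM for Brinp1 to 3.64 CPM for Slc46a2.

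In all 4 genes the 3 Zeb2 cKO libraries lay above the 3 Zeb2 fl/fl libraries, in raw counts as in CPM. Of the tested genes 3.39% were arranged in this way and 2.97% in the opposite way, but the 4 were selected for it and nothing is read from these shares. All 4 passed the filter on low counts through the Zeb2 cKO libraries, since at most 1 Zeb2 fl/fl library of any of them reached the level the filter asks for. Zeb2 cKO replicate 1 was the highest library for each of the 4, and Zeb2 cKO replicate 2 was the lowest of its group for Mrap2, Slc46a2 and Slc9a3. Leaving Zeb2 cKO replicate 1 out lowered the log2 fold change from 7.34 to 6.43 for Mrap2, from 4.18 to 3.25 for Slc46a2, from 2.30 to 2.11 for Slc9a3 and from 2.40 to 1.96 for Brinp1. With Zeb2 fl/fl replicate 2 left out the values were 7.35, 3.81, 1.87 and 2.58. Slc9a3 depended most on Zeb2 fl/fl replicate 3, and the value was 3.57 when that library was left out. The groups of all 4 genes stayed apart whichever library was left out, which is no measure of stability for groups already apart with all libraries. The fitted log2 fold change of Mrap2 depends on the small count that edgeR adds before taking logs. The fold given above depends in turn on the floor and on Zeb2 cKO replicate 1. Without that library the mean of Mrap2 in Zeb2 cKO was 0.246 CPM, in place of 0.450 CPM.

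Within the whole table the 4 genes combined low levels with large differences. Their log2 fold changes of 7.34 (standard error 1.45), 4.18 (0.98), 2.30 (0.63) and 2.40 (0.49) ranked 1, 2, 7 and 4 of the 14746 tested genes, a position that follows from how they were chosen. The mean level of Mrap2 was at percentile 1.19 of the tested genes and that of Brinp1 at percentile 1.63. Slc46a2 stood at percentile 16.6 and Slc9a3 at 14.1. As many as 7 tested genes had a log2 fold change at or above that of Slc9a3, the lowest of the set, and 25 had one at or below the same size in the other direction. By edgeR's quasi-likelihood test 0 of the 14746 genes (0%) had an adjusted p under 0.05, 280 had an unadjusted p under 0.05, and DESeq2's Wald test called 2 genes (0.0136% of those tested). Both calls fall within the 4 genes, which were selected on this difference, so nothing is read from them.

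**Figure D2:**
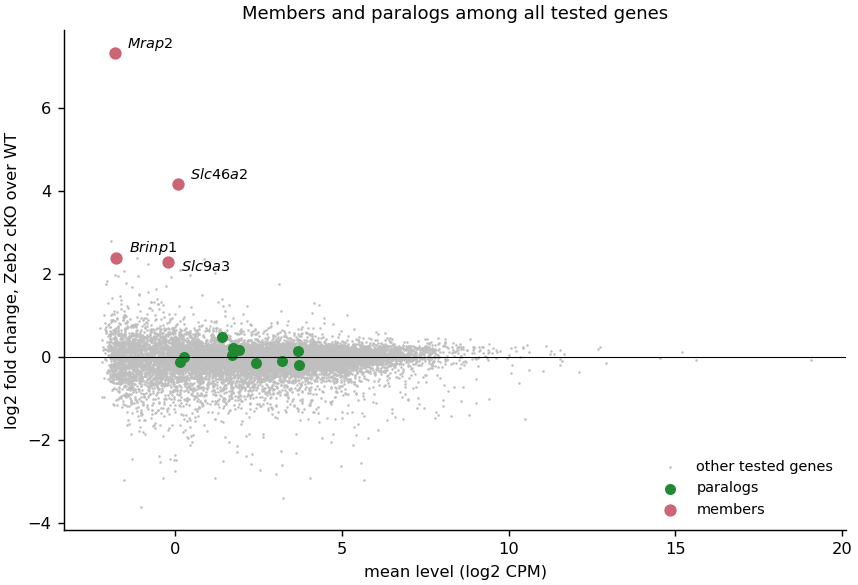
Log2 fold change of Zeb2 cKO over Zeb2 fl/fl (WT) against mean level in log2 CPM for each tested gene (grey points), with the 4 genes in red and their tested paralogs in green. The 4 genes lie between 2.30 and 7.34 on the fold change axis, above nearly all genes of their level, and the 10 paralogs lie near 0, with a median of 0.022.

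To ask whether relatives of the 4 genes differed as well, 13 paralogs were read from the same fit across all genes. Of the 10 that passed the filter, 0 had an unadjusted p under 0.05 by edgeR's quasi-likelihood test, against 1.9% of all tested genes, and 0 had groups that did not overlap. Their median log2 fold change was 0.022, against -0.0069 over all tested genes. The paralogs were read per kb of exon, which allows levels of different genes to be set side by side.

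Mrap, which serves the ACTH receptor MC2R in the adrenal cortex and is also expressed in fat, was at 1.99 CPM per kb in Zeb2 fl/fl hearts and 2.05 in Zeb2 cKO, whereas Mrap2 was at 0 and 0.199. Its log2 fold change was 0.05 (standard error 0.23), with libraries from 2.44 to 3.66 CPM that overlapped. The folate transporter gene Slc46a1 was level between the groups at 0.375 and 0.374 CPM per kb (log2 fold change -0.0026, standard error 0.20). Slc46a3, whose product sits in lysosomes, was at 1.41 and 1.60 CPM per kb (0.18, standard error 0.20). Slc46a2, at 0.0363 CPM per kb in Zeb2 fl/fl, was the lowest of its family there in every library. At 0.658 in Zeb2 cKO its mean lay between those of its relatives, but its uneven libraries overlapped those of Slc46a1.

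The Na+/H+ exchangers of the Slc9a family spanned a wide range of levels in this tissue, in which Slc9a3 came near the bottom. Slc9a8 of the Golgi was at 1.33 CPM per kb in Zeb2 fl/fl hearts and 1.47 in Zeb2 cKO, the endosomal Slc9a9 at 0.988 and 0.899, and Slc9a7 of the trans-Golgi network at 0.793 and 0.921. Slc9a2 was at 0.312 and 0.435 and Slc9a5 at 0.212 and 0.194. Within Zeb2 fl/fl, the libraries of Slc9a9 overlapped those of Slc9a8 and those of Slc9a7, whereas Slc9a8 lay above Slc9a7 in every library. The libraries of Slc9a2 and Slc9a5 overlapped there. Within Zeb2 cKO, Slc9a8 lay above Slc9a9 and Slc9a2 above Slc9a5 in every library, and Slc9a9 and Slc9a7 overlapped. Slc9a3 was at 0.0498 and 0.244, so that in Zeb2 cKO its mean lay between those of Slc9a5 and Slc9a2, whose libraries overlapped with its own. Slc9a4, with 0 to 7 counts, did not pass the filter. The log2 fold changes of the 5 named exchangers that did pass ran from -0.14 (Slc9a9, standard error 0.31) to 0.48 (Slc9a2, standard error 0.49). Slc9a2, an epithelial exchanger that like Slc9a3 works at the apical side, reached an unadjusted p of 0.0229 in edgeR's quasi-likelihood test when Zeb2 fl/fl replicate 1 was left out, and the paralogs had no other such call with any of the 6 libraries left out. Without Zeb2 fl/fl replicate 2 the count over all paralogs was 0.

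Brinp2 and Brinp3, which like Brinp1 are genes of the nervous system, were too low to be tested. Brinp2 had 4, 34 and 4 counts in Zeb2 fl/fl hearts and 3, 4 and 6 in Zeb2 cKO. Brinp3 had at most 5 counts in any library. The 34 counts of Brinp2 were in Zeb2 fl/fl replicate 2, the library in which fibroblast and macrophage genes were high, and whether they came from such cells was not tested. Sequence that a paralog shares with any of the 4 genes was also looked for. At 75 or more bases and 95% or more identity, no paralog matched any of the 4 genes, and the closest pair, Slc9a3 and Slc9a5, aligned over 1345 bases at 68.8%. Mrap2 shared such stretches with 63 other genes over 4.36% of its longest transcript of 2112 bases, so that part of its counts is less certain, and the share was 0% for the other 3 genes.

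**Figure D3:**
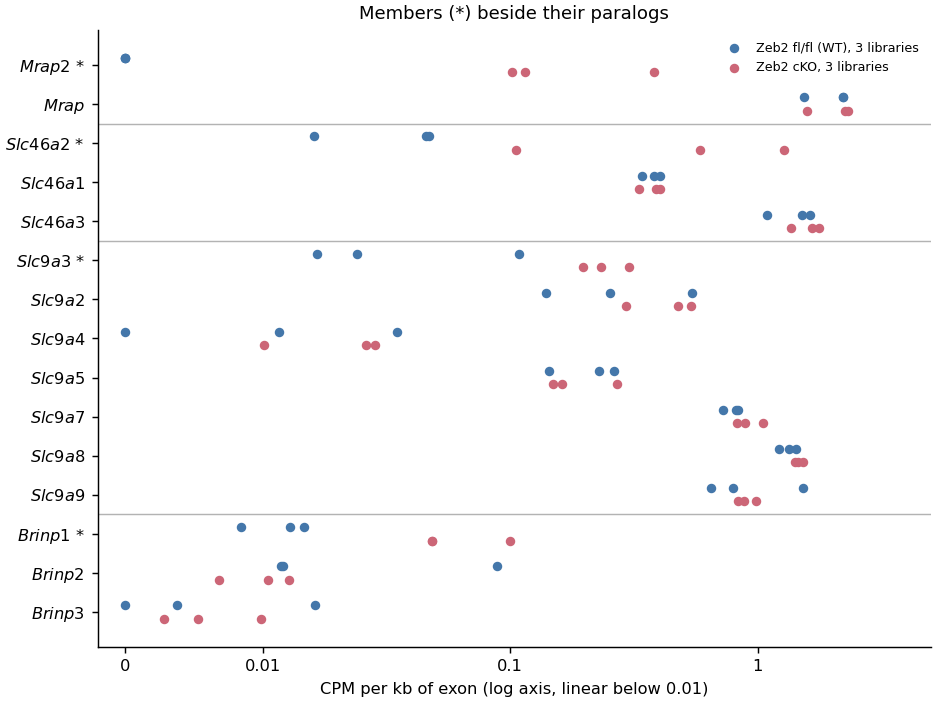
Levels in CPM per kb of exon (log axis, linear below 0.01) of each of the 4 genes, marked with an asterisk, and of its paralogs, with 1 point per library, Zeb2 fl/fl (WT) in blue and Zeb2 cKO in red. The points of Mrap2, Slc46a2, Slc9a3 and Brinp1 separate by genotype, and those of each of the 11 paralogs drawn overlap.

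Genes that act with the 4 proteins were described next, 67 in all. Of the 47 that passed the filter, 1 had an unadjusted p under 0.05 and was higher in Zeb2 cKO (1.04% of all tested genes were) and 1 was lower (0.861% of all tested genes), by edgeR's quasi-likelihood test. Their median log2 fold change was -0.04. Leaving out Zeb2 fl/fl replicate 2, the count in either direction was 2.

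The receptors through which MRAP2 is known to act were hardly present. Mc3r, Mc4r and the ghrelin receptor gene Ghsr had 0 counts in all 6 libraries, as did the ligand genes Asip and Prok2. Mc2r and Mc5r had 1 count each, in Zeb2 fl/fl replicate 2, and Mc1r had 5, 1 and 0 counts in Zeb2 cKO and 0 in Zeb2 fl/fl. The only gene of this list of 15 that passed the filter was the prokineticin receptor gene Prokr1, with 10, 11 and 3 counts in Zeb2 fl/fl hearts and 22, 14 and 15 in Zeb2 cKO. Its groups did not overlap in CPM, at 0.198 ± 0.104 and 0.347 ± 0.0830 CPM, and its log2 fold change of 0.79 (standard error 0.46) had an unadjusted p of 0.132 in edgeR's quasi-likelihood test.

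Of the genes for folates, cyclic dinucleotides and muropeptides, the cargo tied to the SLC46 family, Folr2 had the only unadjusted p under 0.05. Folr2 encodes a folate receptor of tissue-resident macrophages. Its level was 3.61, 2.87 and 4.14 CPM in Zeb2 fl/fl hearts and 6.67, 7.14 and 4.26 CPM in Zeb2 cKO, groups that were apart by a small margin between the replicates numbered 3. Its log2 fold change was 0.77 (standard error 0.24, edgeR quasi-likelihood unadjusted p = 0.0159, Benjamini-Hochberg adjusted p = 0.957). Over the 10 macrophage markers the summed level ran from 228 to 912 CPM in Zeb2 fl/fl, highest in replicate 2, and from 277 to 298 CPM in Zeb2 cKO, with a median log2 fold change of -0.86 and 0 of 10 with an unadjusted p under 0.05. The STING gene (Tmem173), which senses cyclic dinucleotides, had a log2 fold change of -0.05 and the reduced folate carrier gene Slc19a1 one of -0.30.

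None of the 16 tested genes for scaffolds, cofactors and acid-base transport around SLC9A3 had an unadjusted p under 0.05. The smallest p in this list was that of the kinase gene Sgk1, at a log2 fold change of -0.35 (standard error 0.24, unadjusted p = 0.193 in edgeR's quasi-likelihood test). Slc9a3r1 and Slc9a3r2, which encode the NHERF scaffolds, had values of -0.14 and 0.10, and Ezr, for the membrane linker ezrin, had 0.19. Pdzk1, a scaffold gene of the proximal tubule, had 0 to 4 counts in any library.

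Among BMP and retinoic acid genes, set beside Brinp1 for its name, the BMP receptor gene Bmpr1b had the only unadjusted p under 0.05. It had 17, 29 and 12 counts (0.475 ± 0.175 CPM) in Zeb2 fl/fl hearts and 5, 10 and 13 counts (0.191 ± 0.0789 CPM) in Zeb2 cKO. Its log2 fold change was -1.31 (standard error 0.45, edgeR quasi-likelihood unadjusted p = 0.0223, Benjamini-Hochberg adjusted p = 0.957). Rarb, a retinoic acid receptor gene that retinoic acid induces, was at 6.67 ± 1.31 CPM in Zeb2 fl/fl hearts and 9.90 ± 3.41 CPM in Zeb2 cKO, with groups that were apart and an unadjusted p of 0.0724 in edgeR's quasi-likelihood test (log2 fold change 0.57, standard error 0.27). The retinoic acid binding protein genes Crabp1 and Crabp2 were too low to be tested.

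The cell source of the 4 genes cannot be read from bulk tissue, but the markers of cells that normally express them can. For each list the summed level is given without its highest gene, which in several lists is also made by heart cells. No list of an outside tissue was present as a whole. The outside tissues are taken in the order of the genes, from the adrenal and brain sources of Mrap2 to the neurons of Brinp1.

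Of the 9 adrenal markers, 7 had at most 10 counts in every library and the aldosterone synthase gene Cyp11b2 had 0. Without Star, the highest, their sum was 0.114 to 0.286 CPM in Zeb2 fl/fl hearts and 0.180 to 0.299 CPM in Zeb2 cKO. Of the 15 neuron markers in the table, 11 had at most 10 counts in every library. Chat was at 0, and Syt1, Snap25 and Rbfox3, which neurons make in general, had at most 2 counts in any library. Without Uchl1, the highest, the sum was 3.95 to 4.60 CPM in Zeb2 fl/fl hearts and 3.31 to 5.55 CPM in Zeb2 cKO, carried by Stmn2, Tubb3 and Dbh, and 0 of the 4 tested neuron markers had an unadjusted p under 0.05. The sums of both lists overlapped between the groups, as did most of their genes. Nefm, with 0, 0 and 0 against 2, 1 and 2 counts, and Elavl3, with 3, 3 and 3 against 1, 1 and 0 counts, did not overlap, in opposite directions. The part of nerve or adrenal cells in the levels of Mrap2 and Brinp1 was not tested. The 7 markers of glia and Schwann cells, without Cdh19, summed to 3.59 to 6.17 CPM and to 3.46 to 6.22 CPM in the same order.

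For Slc46a2 the defining markers of thymic epithelium, Foxn1 and Krt5, had 0 counts in all 6 libraries, and Psmb11 of the cortical epithelium had 1 count, in Zeb2 fl/fl replicate 2. Without the Notch ligand gene Dll4, which endothelial cells express too, the 10 markers summed to 1.54 to 1.84 CPM in Zeb2 fl/fl hearts and 1.97 to 2.30 CPM in Zeb2 cKO, mostly from Ly75 and Ccl25. These sums did not overlap, whereas each of the 10 genes did, and 0 of the 3 tested had an unadjusted p under 0.05. Among thymocyte genes Rag1 and Ptcra were at 0, and the 11 genes without Cd4 summed to 0.159 to 2.57 CPM and 0.276 to 0.380 CPM.

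For Slc9a3 the proximal tubule genes Slc22a6 and Kap and the neighbouring segment's Umod were at 0, and Slc34a1, Slc5a2 and Slc5a12 had at most 4 counts in any library. Without Cubn, the 10 kidney markers summed to 0.495 to 0.934 CPM in Zeb2 fl/fl hearts and 0.372 to 0.921 CPM in Zeb2 cKO. Of the 9 intestinal markers, the transcription factor genes Cdx1 and Cdx2 were at 0, and the sum without Lgals4 was 0.239 to 0.478 CPM and 0.409 to 0.539 CPM. Of the 2 kidney markers that passed the filter 0 had an unadjusted p under 0.05, and of the 2 intestinal markers 1 had one and was higher (1.04% of all tested genes). It was Vil1, for the microvillus protein villin, with 6 counts in each Zeb2 fl/fl library and 13, 12 and 14 counts in Zeb2 cKO (log2 fold change 0.81, standard error 0.30, edgeR quasi-likelihood unadjusted p = 0.0399, Benjamini-Hochberg adjusted p = 0.957). The 7 markers of lung and airway, none of which passed the filter, summed without Cdh1 to 0.0521 to 0.0683 CPM and 0.0186 to 0.0461 CPM.

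Some adipocyte genes, from a list drawn up with the value of Adig already known, had their higher counts in the same libraries as the 4 genes. Adipoq, the gene of the fat cell hormone adiponectin, had 3, 2 and 5 counts in Zeb2 fl/fl hearts and 25, 8 and 9 in Zeb2 cKO. The lipid droplet genes Cidec and Plin1 had 2, 3 and 3 against 23, 10 and 10 counts, and 2, 1 and 2 against 13, 3 and 4 counts. Adig (adipogenin) was at 4, 3 and 3 against 20, 10 and 15 counts, a log2 fold change of 1.83 (standard error 0.40, edgeR quasi-likelihood unadjusted p = 0.00284, Benjamini-Hochberg adjusted p = 0.957). With Retn, which had 2, 0 and 0 against 3, 3 and 3 counts, 5 of the 10 genes did not overlap between the groups and were higher in Zeb2 cKO. Over all tested genes the share arranged in this way was 3.39%, but 4 of these 5 are not among the tested genes, so the share is no measure for them. Of the 5, Adig alone passed the filter, as did Cfd, Cidea and Fabp4, whose groups overlapped. Zeb2 cKO replicate 1 was the highest library for Adipoq, Plin1, Cidec, Cfd and Adig, as it was for Mrap2, Slc46a2, Slc9a3 and Brinp1, whereas Cidea and Fabp4 were highest in Zeb2 cKO replicate 3 and Retn in Zeb2 cKO replicate 2. Lep had at most 1 count and the brown fat gene Ucp1 had 1 count in all 6 libraries together. Without Fabp4, which endothelial cells also express, the list summed to 5.56 to 10.7 CPM in Zeb2 fl/fl hearts and 9.93 to 15.2 CPM in Zeb2 cKO, mostly from Cidea. The part of adipose tissue in the levels of the 4 genes was not tested.

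Of the cell types of the heart itself, none had a marker with an unadjusted p under 0.05 by edgeR's quasi-likelihood test. The 10 cardiomyocyte markers had a median log2 fold change of 0.17, the 7 endothelial markers of 0.15, the 7 tested markers of the conduction system of 0.18, the 6 of mesothelium of 0.05, the 4 tested of B cells of -0.58 and the 8 of fibroblasts of -1.03, where Zeb2 fl/fl replicate 2 was high.

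**Figure D4:**
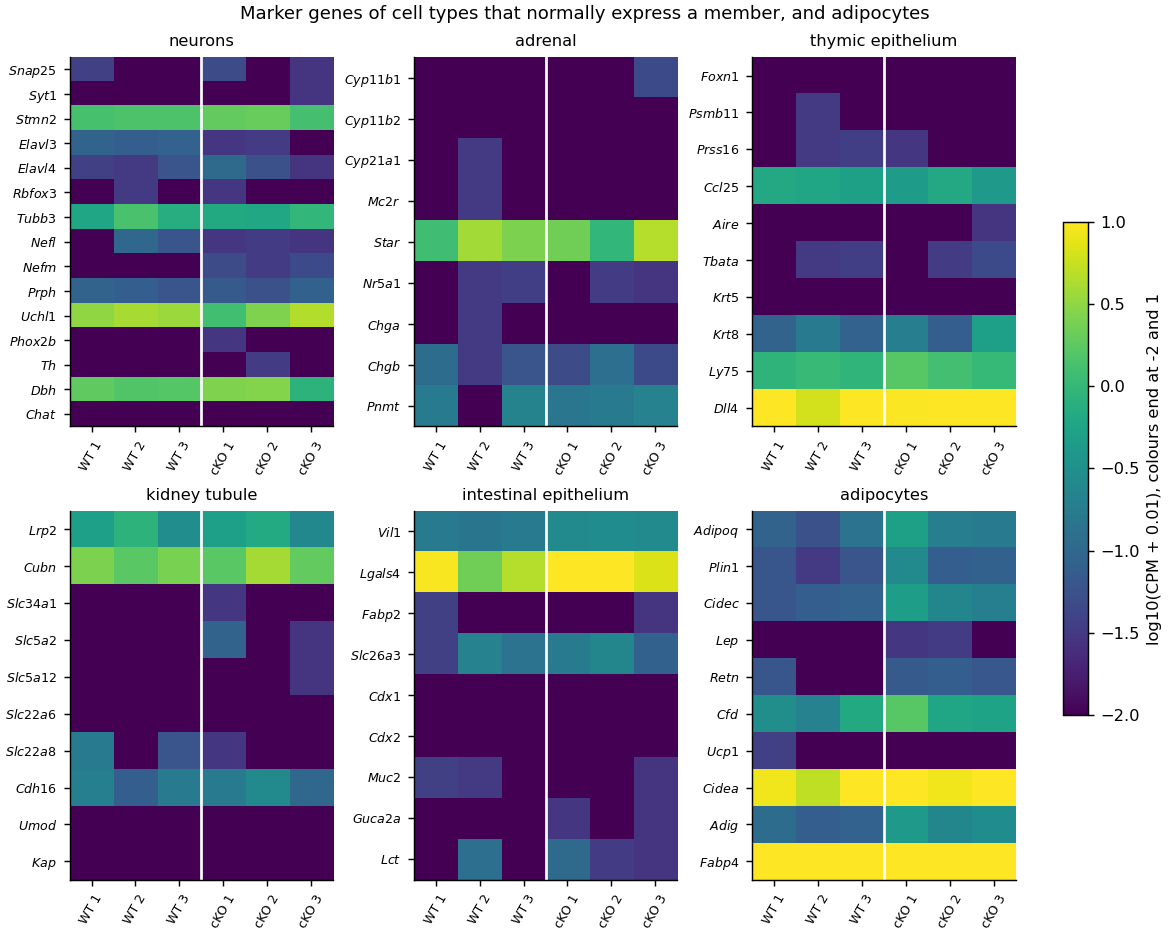
Levels of marker genes, as log10 of CPM plus 0.01, in the 6 libraries for cell types that normally express 1 of the 4 genes and for adipocytes, with colours cut at the ends of the scale and a white line between Zeb2 fl/fl (WT) and Zeb2 cKO. Foxn1, Krt5, Slc22a6, Umod, Kap, Cdx1, Cdx2, Chat and Cyp11b2 are at 0 in all 6 libraries, while Adipoq, Cidec and Adig are brighter in the 3 Zeb2 cKO libraries.

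Genes next to the 4 had values on both sides of 0. Of 48 tested genes within 1 Mb, 1 had an unadjusted p under 0.05 by edgeR's quasi-likelihood test and was higher (1.04% of all tested genes) and 1 was lower (0.861%), and the median log2 fold change was 0.019. Leaving out Zeb2 fl/fl replicate 2, the count in either direction was 3. With all libraries, the higher and the lower gene both lie on the upstream side of Mrap2. The log2 fold change of Ube2cbp, 679 kb away, was 0.80 (standard error 0.29, edgeR quasi-likelihood unadjusted p = 0.0289, Benjamini-Hochberg adjusted p = 0.957). Cyb5r4, the nearest coding gene on that side at 66.5 kb, was at 10.4 ± 1.18 CPM in Zeb2 fl/fl hearts and 8.09 ± 0.757 CPM in Zeb2 cKO, a fall of 0.36 on the log2 scale (standard error 0.14, edgeR quasi-likelihood unadjusted p = 0.0357, Benjamini-Hochberg adjusted p = 0.957). On the other side Cep162, on the opposite strand, ends 5.53 kb from Mrap2 and was level, at 7.78 ± 0.532 and 7.92 ± 0.214 CPM.

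Slc46a2 and Slc9a3 each end close to the end of a gene on the opposite strand that is expressed far more strongly. Snx30 ends 388 bases from Slc46a2 and was at 8.96 ± 0.211 CPM in Zeb2 fl/fl hearts and 10.5 ± 0.423 CPM in Zeb2 cKO (log2 fold change 0.23, standard error 0.11, unadjusted p = 0.0614 in edgeR's quasi-likelihood test). Exoc3 ends 45 bases from Slc9a3 and was at 38.9 ± 6.92 and 44.8 ± 4.54 CPM (log2 fold change 0.20). The libraries were stranded, but the strand setting of the counting is not given in the sources used here, and whether reads that run past the ends of Snx30 and Exoc3 entered the counts of Slc46a2 and Slc9a3 was not tested. The log2 fold changes of both neighbours were below the 4.18 of Slc46a2 and the 2.30 of Slc9a3. That difference is no test of such reads, since they were not counted apart in any library. On the other sides, Mup4 beside Slc46a2 had 0 counts and Cep72 beside Slc9a3 differed by 0.20 on the log2 scale (standard error 0.24). Brinp1 lies in a stretch with few genes, where the nearest coding neighbours, Tlr4 and Cdk5rap2, are 1831 kb and 1262 kb away and had values of -0.40 and -0.18. Between Slc46a2 and Brinp1 on chromosome 4, 0 of 21 tested genes had an unadjusted p under 0.05, and their median was -0.04.

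**Figure D5:**
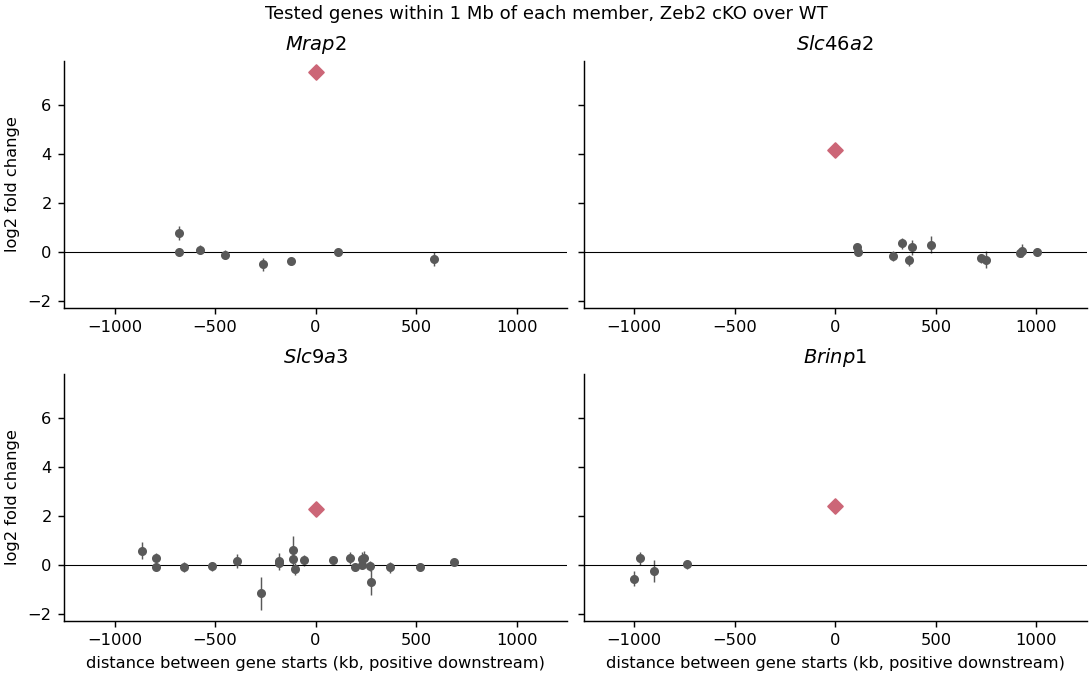
Log2 fold change of Zeb2 cKO over Zeb2 fl/fl (WT) of the tested genes within 1 Mb of each of the 4 genes against the distance between the gene starts in kb, positive downstream of the named gene (red diamond), with bars for the standard error. The neighbours lie between -1.13 and 0.80, below each of the 4 genes.

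The genes with the most similar profiles over the 6 libraries were taken as those with the smallest root mean square difference in log2 CPM after each gene was centred on its own mean. Such genes share the contrast by construction, so they are named with no test. For Brinp1 the closest was Retnla, a gene of alternatively activated macrophages and of adipose tissue, at a difference of 0.153 on the log2 scale. Retnla had 15, 17 and 11 counts in Zeb2 fl/fl hearts and 115, 41 and 47 in Zeb2 cKO, with Zeb2 cKO replicate 1 highest and the other two nearly level, as for Brinp1. The next for Brinp1 were Gm15610 (0.265) and Adig (0.328), and Gm15610, with 1, 3 and 2 counts against 27, 12 and 15, was also the closest to Mrap2 (0.660).

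Slc46a2 was less like any other gene. Its closest were Mrap2 (0.731), Unc13c (0.897) and Egf (0.910). Unc13c, for a protein that primes synaptic vesicles, had 17, 16 and 14 counts in Zeb2 fl/fl hearts and 111, 25 and 124 in Zeb2 cKO. Egf, for epidermal growth factor, had 163, 68 and 233 against 1016, 266 and 740 counts. In both, as in Slc46a2, Zeb2 cKO replicate 2 was far below the other Zeb2 cKO libraries. For Slc9a3 the closest were Gm12409 (0.504), Cacng6 (0.597) and Mettl11b (0.632), each with its Zeb2 fl/fl maximum at 7, 6 and 18 counts in replicate 3, as Slc9a3 had. Mettl11b encodes an N-terminal methyltransferase, and Cacng6 a calcium channel subunit of striated muscle. Between the 4 genes themselves the difference ran from 0.731 (Mrap2 and Slc46a2) to 1.13 (Slc46a2 and Brinp1). Mrap2, Slc9a3 and Brinp1 each had a closer match outside the set than inside it, and for Slc46a2 the closest gene was Mrap2.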

How the data were processed

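For each gene and each of 3 Zeb2 fl/fl and 3 Zeb2 cKO hearts the authors deposited raw counts, made, according to the methods, from stranded single-end libraries depleted of ribosomal RNA that were aligned and counted on Gencode M4 (GRCm38) with the STAR workflow. The version of STAR, the strand setting and the handling of reads with several matches are not given in the sources used here. The submitters' processing notes name DESeq 1.2, and no such output was used here. Each of the 6 columns matched 1 sample by its label, and 0 were left out. Symbols and coordinates came from Gencode M21 by identifier (36345 matched).

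The counts were normalized with TMM and filtered with filterByExpr in edgeR 4.0.16 (R 4.3.3), and genotype was tested with glmQLFit and glmQLFTest, two-sided, with p-values adjusted over the 14746 genes that remained (Benjamini-Hochberg). A prior count of 0.125 entered the log2 fold changes. DESeq2 1.42.0 was an alternative. The likeness of profiles used log2 CPM with a prior count of 2. Sequence matches were found with BLAST 2.17.0 at 75 bases and 95% identity or more. Poisson and ratio intervals are exact, at 95%. Total counts of 37288174 to 51136331 per library make counting error small except for genes of few counts, to which the 4 genes belong. In simulated counts of 14858 tested genes, edgeR found 45 of 100 genes with a log2 change of 1 and 100 of 100 with a change of 2. It called 7 of 14658 unchanged genes. These counts were not split by level, so they are no measure of recovery for genes as low as the 4.

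The 4 genes and the lists of paralogs, partners and markers were chosen with earlier results of these data known. Named genes were Zeb2, the 4 genes, their paralogs, the partner genes with an unadjusted p under 0.05 or else the smallest p in a list, the highest gene of each marker list, the nearest coding gene on each side and the 3 most similar profiles for each gene. Other genes named, such as Rarb, Vil1, Ube2cbp and the markers at 0, were chosen after their values were seen. Of the 13 paralogs, 2 are counted with the others but are not reported here by name. P-values set the difference between the groups against the spread between the mice of a group. Replicate numbers occur in both groups. The deviations of samples with the same number correlated at 0.0878, -0.137 and -0.0869, so the numbers did not pair the mice and were used only in 1 alternative.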

Additional observations from a re-analysis of the deposited data

How the results depend on the processing

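The log2 fold changes of Mrap2, Slc46a2, Slc9a3 and Brinp1 kept their direction in every alternative that gave a value. The genes were selected on this direction and their groups were apart, so it is no measure of stability. With the replicate number as a block, they were 7.28, 3.94, 2.52 and 2.35, the genes with an unadjusted p under 0.05 numbered 247, those with an adjusted p under 0.05 numbered 0, and those within 1 Mb of a member numbered 0 in place of 2. The numbers did not pair the mice, and the highest correlation of a sample was not always with its own number. DESeq2's Wald test gave 2 genes with an adjusted p under 0.05 in place of 0, 217 lower genes with an unadjusted p under 0.05 in place of 127, 1 gene within 1 Mb and 6.61 for Mrap2. A prior count of 2 gave 3.47 for Mrap2 and 1.91 for Brinp1, which shrinks the ratios of low counts by its construction. Without the filter on low counts, 600 genes had an unadjusted p under 0.05 in place of 280 (274 higher and 326 lower), 1 paralog had one, and 1541 genes in place of 938 did not overlap, since more genes were tested. In raw counts without scaling, an alternative chosen after seeing the data, 4585 genes did not overlap, and total counts were higher in most Zeb2 cKO libraries. With each library left out in turn, the count at an adjusted p under 0.05 was 0 each time. The counts at an unadjusted p under 0.05 ran from 122 to 1134 (higher 75 to 307, lower 47 to 827), with 0 to 1 paralogs, 0 to 7 partner genes and 0 to 3 genes within 1 Mb, and 1641 to 3465 genes did not overlap. The largest count, 1134, came without Zeb2 fl/fl replicate 1 and the smallest, 122, without Zeb2 cKO replicate 1, and the cause was not tested. The log2 fold changes ran from 6.43 to 7.65 for Mrap2, from 3.25 to 4.68 for Slc46a2, from 1.87 to 3.57 for Slc9a3 and from 1.96 to 2.58 for Brinp1. Mrap2 did not pass the filter with library sizes taken outside mitochondrial genes, so that alternative gave no value for it. Low counts limit the precision of all 4 genes, most of all of Mrap2 and Brinp1.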
